A study of Homo sapiens with 12 samples.

Results

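The genes described here make, help and control protein folding in the endoplasmic reticulum (ER): 37 genes for ER chaperones and their partners, disulfide enzymes, the machinery of ER-associated degradation (ERAD), the translocon, ER transport and the sensors of the unfolded protein response. They were set as a list of gene names, and Agilent gene probes were assigned to a member when their gene name was its symbol or an older one, and all 37 genes were found under their present symbol, with 71 probes, of 41000 gene probes with 29245 gene names on the array. After the filter on dim probes, all 37 genes were left with 68 probes, of 24184 gene names with 33476 probes. HuH-7 cells are a line from human hepatocellular carcinoma whose p53 carries the Y220C mutation, which destabilizes the protein. All 3 groups were such cells, harvested 24 h after treatment, with DMSO alone in the controls, 28 µM SLMP53-2 (2 times the IC50) in one treated group and 42 µM SLMP53-2 (3 times the IC50) in the other. SLMP53-2 is a tryptophanol-derived oxazoloisoindolinone studied as a reactivator of mutant p53. Each group holds 4 biological replicates of total RNA on 1-colour arrays, 12 arrays in all, on 5 slides. One label field gives 48 µM for the arrays that other labels and the methods give as 42 µM, and 42 µM is used here.

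Proteins that enter the secretory pathway pass through the translocon into the ER, where Hsp70- and Hsp90-type chaperones, lectin chaperones and protein disulfide isomerases fold them. Proteins that fail to fold are picked out by lectins such as the EDEM proteins and OS9, passed through the membrane by a complex around the ubiquitin ligase SYVN1 and its partner SEL1L, and destroyed by the proteasome. When unfolded proteins build up, the sensors IRE1 (the product of ERN1), ATF6 and PERK start the unfolded protein response: IRE1 splices XBP1 mRNA and ATF6 is cut into a transcription factor, and both raise chaperone and ERAD genes, while PERK phosphorylates eIF2α, which favours translation of ATF4. Hepatocytes secrete most plasma proteins and have an abundant ER.

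Values are log2 intensities after Edwards background correction and quantile normalization, so each level is relative to the other probes of the same array. A gene was called when its adjusted p was below 0.05 and its log2 fold change was at least 0.6 in either direction, by limma with Benjamini-Hochberg adjustment over all 33476 probes. For each gene the tested probe with the highest mean over all 12 arrays, treated ones included, stood for it. Between 65.0% and 85.0% of gene spots were well above background on an array, no gene spot was saturated, and 79 to 119 gene spots per array carried an outlier flag. Of 8 hepatocyte markers, 7 were above background on all 12 arrays and TTR on 11, with DMSO means up to 16.1 for ALB. On the remaining array, of the 42 µM group, the TTR value was missing, since outlier-flagged spots were left out. Of 12 markers of leukocytes, fibroblasts and endothelial cells 7 were above background on all 12 arrays, with DMSO means from 5.84 for PTPRC to 10.1 for COL1A2. Replicate 4 of the 28 µM group stood apart from its group. A list of 8 genes, ATF4 and genes downstream of PERK and ATF4, lay on average 0.19 above the DMSO mean there. On the other arrays of the group it lay 1.75 to 1.86 above that mean. With that array, 0 of the 24184 genes were called at 28 µM, and without it 350 were higher and 237 lower, so the calls at 28 µM, the medians by role and the changes of the genes described singly are given with and without it. The array was singled out by genes that differ between the groups. Leaving it out can by itself raise such changes and narrow the spread, so results without it are a description and no independent support.

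The ER folding genes changed little as a group, and HERPUD1 and DNAJC10 were the only members called. At 42 µM these 2 of 37 members were called higher (5.41%, where 1.57% of all genes tested were) and 0 lower (where 1.41% of all genes were). At 28 µM 0 members were called in either direction, and the same held for 0% of all genes. Without replicate 4 of the 28 µM group, HERPUD1 and DNAJC10 were called at 28 µM too (5.41% of members, 1.45% of all genes) and 0 members were called lower there (beside 0.98%). In that fit 4 members were called higher at 42 µM, the same 2 with CANX and ERN1 (10.8% of members, 2.23% of all genes) and 0 lower (beside 1.85%). Between 42 and 28 µM 0 members and 0% of all genes were called. The median log2 fold change of the 37 members was 0.16 at 28 µM, with 26 higher and 11 lower than DMSO (0.12 with 22 higher without replicate 4), and 0.08 at 42 µM, with 24 higher and 13 lower, beside -0.02 over all genes tested at either concentration. The median at 42 µM turned to -0.08 and -0.05, with 16 and 17 of 37 higher, when arrays were scaled to their 75th percentile, from the processed signal and from the Edwards values. Since RNA of whole cultures was measured, fewer cells of a type and less RNA per cell cannot be told apart.

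**Figure D1:**
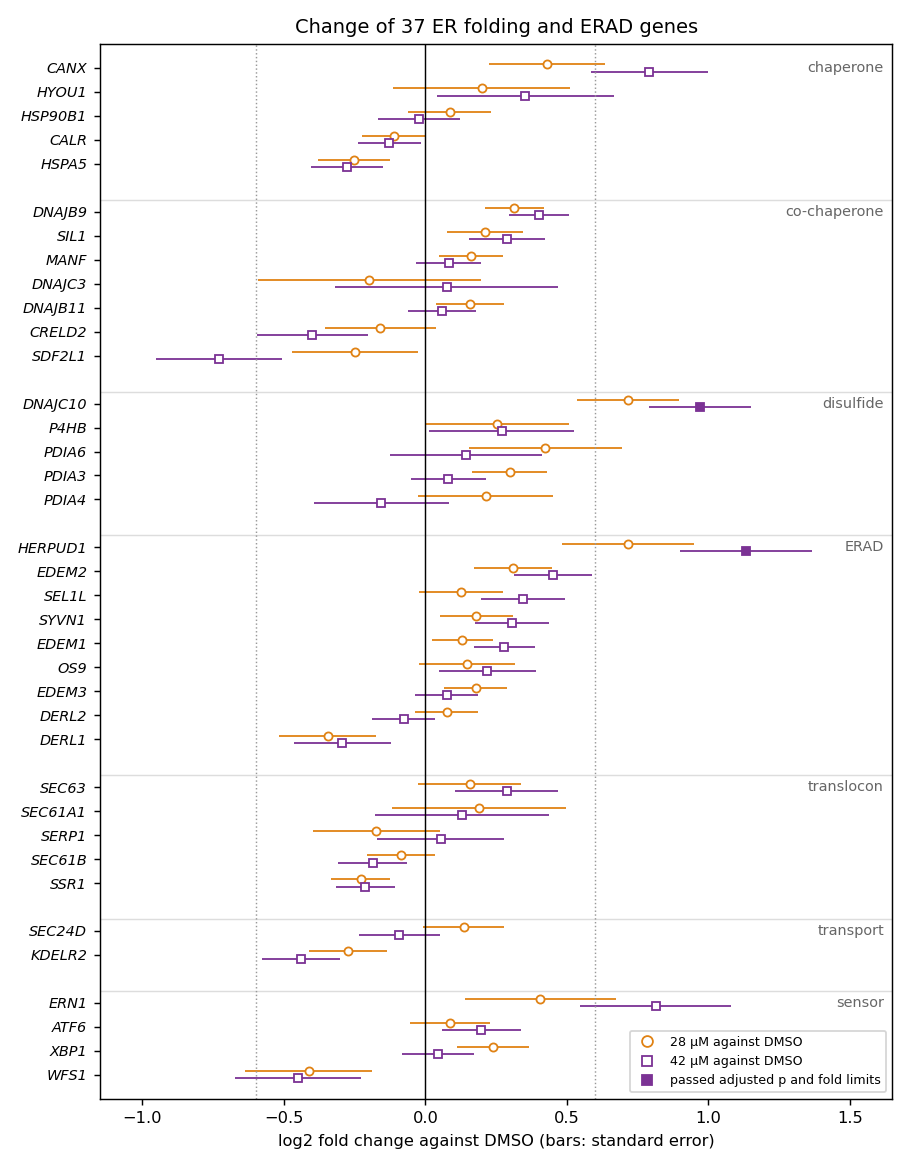
Log2 fold change against DMSO (x axis) of the 37 genes (rows, by role and by change at 42 µM), with circles for 28 µM and squares for 42 µM, bars for the standard error from limma and dotted lines at 0.6 and -0.6. The 2 filled squares are HERPUD1 (1.13) and DNAJC10 (0.97), and 24 of the 37 squares lie above 0.

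By an unadjusted p below 0.05 in limma, 9 members were higher (24.3%, beside 8.34% of all genes) and 3 lower (8.11%, beside 7.7%) at 42 µM, and 5 were higher (13.5%, beside 5.58%) and 1 lower (2.7%, beside 6.29%) at 28 µM, replicate 4 included. Between 42 and 28 µM 0 were higher by that measure (beside 1.11%) and 1, SDF2L1, was lower (2.7%, beside 1.46%). At 42 µM all 4 arrays lay above all 4 DMSO arrays for 7 members (18.9%, beside 5.94% of all genes), namely CANX, DNAJB9, DNAJC10, HERPUD1, SYVN1, EDEM1 and ERN1. They lay below all DMSO arrays for 4 members (10.8%, beside 7% of all genes), namely HSPA5, SDF2L1, KDELR2 and WFS1. These counts use only the probe that stands for a gene. At 42 µM another probe had the opposite sign for HSPA5 (0.66), SYVN1 (-0.14) and ERN1 (-0.41). The other sense probes of KDELR2 lay between -0.01 and 0.03, and those of CANX, DNAJC10, HERPUD1 and EDEM1 had the same sign. At 28 µM the counts were 3 above (8.11%, beside 2.78%), DNAJB9, DNAJC10 and EDEM2, and 0 below (beside 2.93%). Without replicate 4 of the 28 µM group they were 7 above (18.9%, beside 7.45%), with HERPUD1, EDEM1, EDEM3 and ERN1 added, and 3 below (8.11%, beside 7.96%), HSPA5, KDELR2 and WFS1. Between 42 and 28 µM 0 members did not overlap, beside 0.687% of all genes that were higher and 0.919% that were lower. The spread between replicates was ordinary for these arrays: the pooled SD within groups had a median of 0.20 over the members and 0.22 over all genes tested.

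HERPUD1 codes for an ER membrane protein that recruits ERAD factors to the SYVN1 complex, and its probe lies at chr16:56977700-56977759 (hg19, plus strand). On the DMSO arrays it had log2 values of 12.26, 12.25, 12.34 and 12.20, at 28 µM 13.56, 13.04, 13.19 and 12.12 for replicates 1 to 4, and at 42 µM 13.66, 13.40, 13.27 and 13.25. All 42 µM arrays were thus higher than all DMSO arrays, and at 28 µM replicates 1 to 3 were higher as well while replicate 4 was below the lowest DMSO array. HERPUD1 rose at 42 µM by 1.13 ± 0.23 on the log2 scale (SE, n = 4 arrays per group, 2.19-fold, adjusted p = 0.0225 in limma). The change at 28 µM was 0.72 ± 0.23 with all arrays (adjusted p = 0.28 in limma) and 1.0 ± 0.15 without replicate 4 (adjusted p = 0.00452 in limma). On the 3 slides that held both a DMSO and a 42 µM array the differences were 1.46, 1.07 and 1.02. With slide as a block the change was 1.18 and the call was lost (adjusted p = 0.0643 in limma), as it was without any single DMSO array (adjusted p from 0.052 to 0.0697) and without replicate 1 or 2 of 42 µM (0.0606 and 0.079). Its other tested probe was not above background on the DMSO or 42 µM arrays and gave a difference of 0.12.

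DNAJC10 codes for ERdj5, an ER reductase with a J domain that opens disulfide bonds of proteins bound for ERAD, and its probe lies at chr2:183623959-183624018 (hg19, plus strand). Its log2 values were 10.52, 10.74, 10.86 and 10.76 under DMSO, 11.34, 11.78, 11.53 and 11.10 at 28 µM, and 11.52, 12.12, 11.79 and 11.32 at 42 µM. Every treated array was higher than every DMSO array at both concentrations, and replicate 4 was the lowest of each treated group. DNAJC10 rose at 42 µM by 0.97 ± 0.18 (SE, 1.96-fold, adjusted p = 0.0165 in limma). At 28 µM the change was 0.72 ± 0.18 with all arrays (1.64-fold, adjusted p = 0.194 in limma) and 0.83 ± 0.18 without replicate 4 (adjusted p = 0.0344 in limma). Within slides the difference between 42 µM and DMSO was 0.76, 1.25 and 1.06, and with slide as a block it was 0.96 and no longer called (adjusted p = 0.0742 in limma). The call was also lost without replicate 1 or 2 of DMSO (adjusted p = 0.0535 and 0.0601 in limma) or replicate 2 of 42 µM (0.0665). A second probe gave 0.43 at 28 µM and 0.60 at 42 µM (adjusted p = 0.11 in limma), and the remaining probe, at 5.51 on average under DMSO, was above background on no array and was not tested.

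The bases before the start of these 2 genes are shown here because they are the members called. They were taken from RefSeq promoter windows of build GRCh38.p14, which reach from 250 bases before a gene's start to 50 after it, and 33 of the 37 members have such a window. Capitals mark matches of 4 motifs known from genes of the stress responses of the ER, searched on both strands: the ER stress response element ERSE (CCAAT and CCACG with 9 bases of any kind between them), ERSE-II (ATTGG, 1 base of any kind, CCACG), the unfolded protein response element UPRE (TGACGTGG) and the C/EBP-ATF composite site (TGATGNAA), the kind of site that ATF4 binds. For HERPUD1 the stretch is chr16:56931892-56932141 on the plus strand, and for DNAJC10 chr2:182716007-182716256 on the plus strand.
HERPUD1: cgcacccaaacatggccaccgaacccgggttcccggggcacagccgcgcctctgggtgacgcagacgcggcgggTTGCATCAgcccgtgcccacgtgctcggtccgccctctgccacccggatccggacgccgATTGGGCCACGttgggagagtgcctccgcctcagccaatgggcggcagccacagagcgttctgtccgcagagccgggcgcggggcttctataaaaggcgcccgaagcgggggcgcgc
DNAJC10: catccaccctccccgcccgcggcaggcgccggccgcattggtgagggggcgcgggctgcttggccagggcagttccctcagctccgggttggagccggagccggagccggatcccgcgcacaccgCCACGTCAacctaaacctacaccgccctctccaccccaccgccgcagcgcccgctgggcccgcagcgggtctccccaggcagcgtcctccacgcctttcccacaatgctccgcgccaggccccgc
The HERPUD1 stretch holds a C/EBP-ATF composite match on the minus strand, which begins 176 bases before the start, and an ERSE-II match on the plus strand, which begins 117 bases before it. HERPUD1 was the only member with a composite match in its window. That is 3.03% of the members with a window, no more than the 4.46% of all genes that hold such a match. In the DNAJC10 stretch the single match is a UPRE on the minus strand, 125 bases before the start.

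The other 8 ERAD genes were mostly a little higher under treatment, and none of them was called. Of the 9 ERAD members 7 were higher at 42 µM, with a median of 0.28, and 8 at 28 µM, with a median of 0.15 (7 and 0.21 without replicate 4). SYVN1, the ubiquitin ligase of the ERAD complex, had log2 values of 10.44, 10.56, 10.39 and 10.59 under DMSO, 10.71, 11.00, 10.49 and 10.50 at 28 µM, and 10.83, 10.63, 10.97 and 10.77 at 42 µM. The 42 µM arrays were all above the DMSO arrays and the 28 µM arrays overlapped them. The difference in means was 0.31 ± 0.13 at the higher concentration (adjusted p = 0.271 in limma) and 0.18 at the lower one (adjusted p = 0.639), or 0.24 without replicate 4 (0.20 and 0.21 at the higher concentration with arrays scaled to the 75th percentile), while its other probe gave -0.14 at 42 µM. For EDEM1, a lectin that hands misfolded glycoproteins to ERAD, the probe that stands for the gene gave a change of 0.28 at 42 µM (adjusted p = 0.214 in limma) and its other probe 0.83 (adjusted p = 0.0563). SEL1L, EDEM2, EDEM3 and OS9 lay between 0.08 (EDEM3) and 0.45 (EDEM2) at 42 µM, while the other SEL1L probe gave -0.09. The derlins, thought to form part of the channel for retrotranslocation, were lower: DERL1 by -0.29 and DERL2 by -0.08, with adjusted p-values of 0.474 and 0.839.

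**Figure D2:**
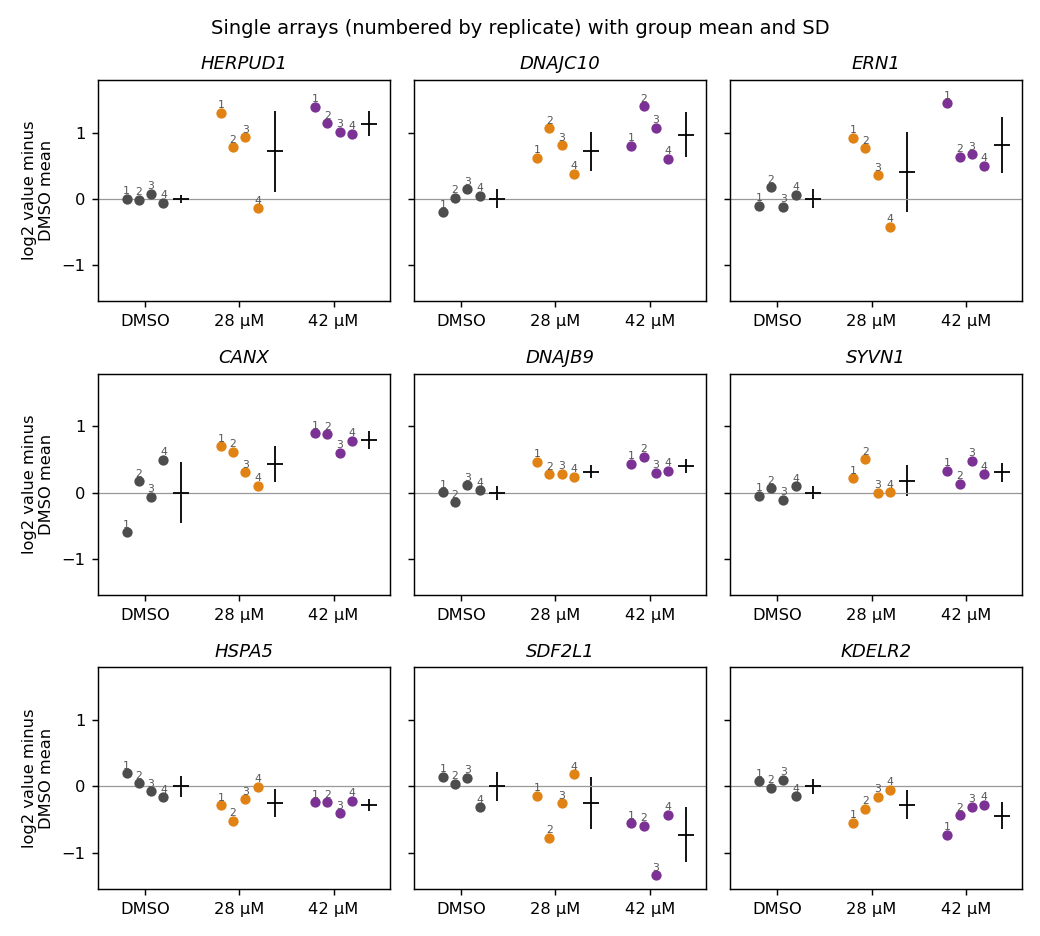
Log2 value minus the DMSO mean (y axis) on every array of 9 members, numbered by replicate and coloured by group (grey DMSO, orange 28 µM, purple 42 µM), with the group mean and SD in black. HERPUD1 and ERN1 on replicate 4 of the 28 µM group lie below 0, while the 42 µM arrays of HSPA5, SDF2L1 and KDELR2 all lie below their DMSO arrays.

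The ER chaperones themselves did not move together. Of the 12 chaperones and co-chaperones 7 were higher than DMSO at each concentration, with a median of 0.12 at 28 µM, or -0.02 without replicate 4, and of 0.07 at 42 µM, which was -0.11 under both scalings to the 75th percentile. HSPA5 (BiP), the Hsp70 of the ER and the usual marker of the unfolded protein response, had 11.54, 11.39, 11.27 and 11.18 under DMSO, 11.06, 10.82, 11.15 and 11.34 at 28 µM, and 11.11, 11.11, 10.94 and 11.13 at 42 µM. The 42 µM arrays all lay below the DMSO arrays, by a small distance. The difference on the log2 scale was -0.28 ± 0.13 for the higher concentration (95% interval from limma -0.55 to -0.0017, adjusted p = 0.321) and -0.25 ± 0.13 for the lower (adjusted p = 0.49), or -0.33 without replicate 4. The other HSPA5 probe gave 0.66 at 42 µM and 0.91 at 28 µM, with adjusted p-values of 0.602 and 0.516 in limma and values scattered from 8.62 to 10.29 under DMSO, from 9.48 to 11.53 at 28 µM and from 8.84 to 10.74 at 42 µM. The 2 probes thus had opposite signs, and neither was called.

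HSP90B1 (GRP94), the Hsp90 of the ER, had 14.37, 14.58, 14.79 and 14.71 under DMSO, 14.78, 14.46, 14.59 and 14.96 at 28 µM, and 14.75, 14.57, 14.31 and 14.73 at 42 µM. The 3 groups overlapped. Its change was -0.02 ± 0.15 at 42 µM (95% interval -0.34 to 0.29, adjusted p = 0.97 in limma) and 0.09 at 28 µM (adjusted p = 0.857), or -0.0017 without replicate 4. Under the scalings to the 75th percentile HSP90B1 had -0.26 and -0.24 at 42 µM and -0.13 and -0.16 at 28 µM. CANX (calnexin), the membrane-bound lectin chaperone, had the largest change of the 5 chaperones at 42 µM. Its values were 10.11, 10.88, 10.65 and 11.21 under DMSO, 11.41, 11.33, 11.02 and 10.81 at 28 µM, and 11.61, 11.60, 11.32 and 11.49 at 42 µM. The 42 µM arrays were above all DMSO arrays, among which replicate 1 was low. The CANX change was 0.79 ± 0.21 at 42 µM (adjusted p = 0.056 in limma) and 0.43 at 28 µM (adjusted p = 0.467), or 0.54 without replicate 4. It was called at 42 µM with that array left out of the fit (adjusted p = 0.0387 in limma) and without replicate 4 of DMSO (adjusted p = 0.0447). The other CANX probe gave 0.43 at 42 µM (adjusted p = 0.189). CALR (calreticulin), the soluble lectin chaperone, had -0.13 (95% interval -0.37 to 0.11), and HYOU1, an Hsp70-related chaperone, 0.35 (-0.32 to 1.03).

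Among the 7 co-chaperones and related proteins 5 were higher and 2 lower at 42 µM, and none was called. DNAJB9 (ERdj4), a J protein that helps BiP and represses IRE1, had 12.16, 12.01, 12.26 and 12.19 under DMSO, 12.61, 12.43, 12.44 and 12.39 at 28 µM, and 12.59, 12.70, 12.45 and 12.48 at 42 µM. Every treated array, replicate 4 of 28 µM included, was above every DMSO array. The change was 0.40 ± 0.11 at 42 µM (adjusted p = 0.0599 in limma) and 0.31 ± 0.11 at 28 µM (adjusted p = 0.294), or 0.34 without replicate 4. Scaled to the 75th percentile, from the processed signal and from the Edwards values, DNAJB9 had 0.23 and 0.22 at 42 µM (adjusted p = 0.454 and 0.542 in limma). SDF2L1, which acts with BiP and J proteins, went the other way, with 15.60, 15.50, 15.58 and 15.14 under DMSO, 15.31, 14.68, 15.20 and 15.64 at 28 µM, and 14.90, 14.86, 14.11 and 15.03 at 42 µM. All its 42 µM arrays were below all DMSO arrays, and the 28 µM arrays overlapped them. The SDF2L1 change was -0.73 ± 0.22 at 42 µM (0.603-fold, adjusted p = 0.104 in limma) and -0.25 at 28 µM (adjusted p = 0.707), or -0.39 without replicate 4 and -0.61 and -0.48 under the scalings to the 75th percentile. The value at 42 µM was the lowest of the 37 members. CRELD2, an ER stress-inducible protein, had -0.40 at 42 µM (adjusted p = 0.36), and DNAJB11, DNAJC3, SIL1 and MANF lay between 0.06 and 0.29.

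Of the 5 disulfide enzymes, all were higher than DMSO at 28 µM (0.21 to 0.72, or 0.07 to 0.83 without replicate 4, with P4HB the lowest at 0.07) and 4 at 42 µM (-0.16 to 0.97), and DNAJC10 alone was called. PDIA3, PDIA4, PDIA6 and P4HB are protein disulfide isomerases that form and rearrange disulfide bonds. At 42 µM they had 0.08, -0.16, 0.14 and 0.27, with adjusted p-values in limma from 0.717 to 0.886. Part of the spread was shared: PDIA6, P4HB, HYOU1 and SEC61A1 were each lower on replicates 1 and 2 than on replicates 3 and 4 of DMSO, lowest on replicate 1 of both treated groups and highest of all on replicate 4 of the 28 µM group. For P4HB the values ran from 13.93 to 14.69 under DMSO, from 14.05 to 15.13 at 28 µM and from 14.01 to 14.84 at 42 µM. The second probes of PDIA6 and P4HB were not lowest on those arrays: replicate 1 had the highest PDIA6 value of both treated groups, 9.39 and 9.47. These 4 genes were grouped after their values were seen, and the source of this pattern was not tested.

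The 5 translocon genes had a median of -0.09 at 28 µM (-0.11 without replicate 4) and 0.05 at 42 µM, and none was called. SEC61A1, the channel subunit, had 10.91, 10.74, 11.64 and 11.35 under DMSO, 10.58, 11.23, 11.46 and 12.13 at 28 µM, and 10.65, 11.72, 11.38 and 11.40 at 42 µM. Its groups overlapped widely, and the change was 0.13 ± 0.31 at 42 µM (95% interval -0.54 to 0.79, adjusted p = 0.912 in limma) and 0.19 at 28 µM (adjusted p = 0.849), or -0.07 without replicate 4, and -0.03 and 0.0027 at 42 µM under the scalings to the 75th percentile. SEC63, which couples the channel to BiP, had 11.40, 11.58, 11.21 and 11.42 under DMSO, 11.75, 11.99, 11.47 and 11.02 at 28 µM, and 11.91, 11.66, 11.73 and 11.46 at 42 µM. The arrays of both treated groups overlapped those of DMSO, with changes of 0.29 ± 0.18 at 42 µM (adjusted p = 0.523 in limma) and 0.16 at 28 µM (adjusted p = 0.777), or 0.34 without replicate 4, and 0.16 and 0.15 at 42 µM under those scalings. SEC61B, a small channel subunit, SSR1, of the translocon-associated TRAP complex, and SERP1, which stabilizes membrane proteins under stress, had -0.19, -0.21 and 0.05 at 42 µM. The other SSR1 probe had the opposite sign, with 0.21. Of the 2 transport genes, KDELR2, a receptor that returns escaped ER proteins from the Golgi, had 13.14, 13.04, 13.16 and 12.91 under DMSO, 12.51, 12.72, 12.91 and 13.01 at 28 µM, and 12.33, 12.62, 12.75 and 12.78 at 42 µM. The 42 µM arrays were all below the DMSO arrays, with a change of -0.44 ± 0.14 (adjusted p = 0.113 in limma), and -0.27 at 28 µM (adjusted p = 0.49), or -0.35 without replicate 4. With Edwards values scaled to the 75th percentile KDELR2 was called lower at 42 µM (-0.65, adjusted p = 0.0306 in limma). The other 3 sense probes of KDELR2 lay between -0.01 and 0.03 at 42 µM, and SEC24D, a COPII coat subunit, had -0.09.

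The sensors and their effector were not called with all arrays. XBP1, the transcription factor that IRE1 switches on by splicing, had 15.03, 14.76, 14.90 and 14.59 under DMSO, 14.94, 15.21, 15.13 and 14.95 at 28 µM, and 14.88, 14.65, 14.90 and 15.02 at 42 µM. These groups overlapped, with changes of 0.045 ± 0.13 at 42 µM (95% interval -0.23 to 0.32, adjusted p = 0.93 in limma) and 0.24 ± 0.13 at 28 µM (adjusted p = 0.515), or 0.28 without replicate 4, and the sign turned at both concentrations under the scalings to the 75th percentile (-0.25 and -0.18 at 42 µM). The spliced and the unspliced form of XBP1 were not told apart here. ERN1, the gene of IRE1 itself, had 8.01, 8.30, 8.00 and 8.18 under DMSO, 9.05, 8.88, 8.48 and 7.70 at 28 µM, and 9.57, 8.75, 8.80 and 8.63 at 42 µM. The 42 µM arrays were above all DMSO arrays, and at 28 µM only replicate 4 was not. The change of this probe was 0.81 ± 0.27 at 42 µM (adjusted p = 0.13 in limma) and 0.41 ± 0.27 at 28 µM (adjusted p = 0.602), or 0.68 without replicate 4. It was called at 42 µM when replicate 4 of the 28 µM group was left out of the fit (adjusted p = 0.0339). The 3 other ERN1 probes gave 0.10, -0.02 and -0.41 at 42 µM, so the call belongs to 1 of 4 probes. Under DMSO the probe with -0.41 was the brighter, with a mean of 8.78 beside 8.12. At 28 µM it had -0.78 (adjusted p = 0.145 in limma), with all arrays below all DMSO arrays. The probe standing for ERN1 was thus picked partly by its treated values, and the counts that include ERN1 rest on that choice. ATF6, the sensor that is cut in the Golgi, had 9.95, 9.76, 9.65 and 9.53 under DMSO, 9.81, 9.77, 10.01 and 9.65 at 28 µM, and 10.11, 10.13, 9.79 and 9.66 at 42 µM. Its groups overlapped, and the change was 0.20 ± 0.14 at 42 µM (adjusted p = 0.583 in limma) and 0.09 at 28 µM (adjusted p = 0.85), or 0.14 without replicate 4. WFS1 (wolframin), an ER membrane protein that restrains ATF6, had changes of -0.45 at 42 µM and -0.41 at 28 µM, or -0.63 at 28 µM without replicate 4, with adjusted p-values of 0.369, 0.526 and 0.113 and all 42 µM arrays below all DMSO arrays.

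**Figure D3:**
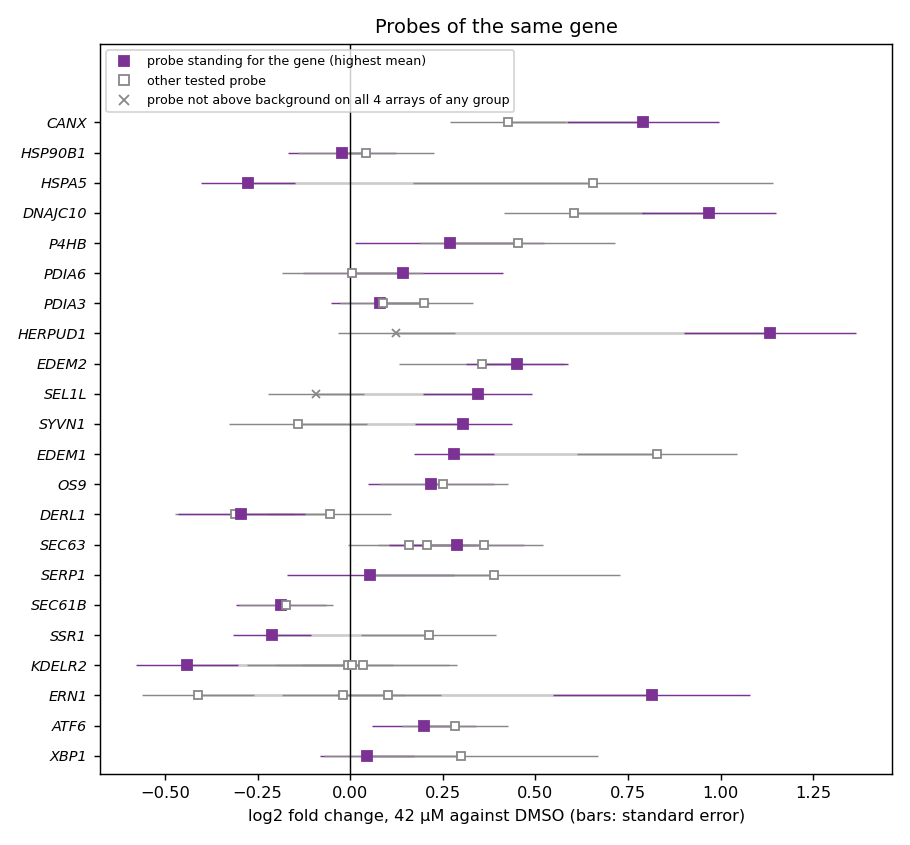
Log2 fold change at 42 µM against DMSO (x axis) of every tested sense probe for the 22 members with several (rows), with bars for the standard error, filled squares for the probe that stands for the gene, open squares for the others and crosses for probes that no group had above background on all 4 of its arrays. The probes of 15 genes have the same sign, and those of 7, HSPA5 and ERN1 among them, do not.

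ATF4 and genes that act downstream of PERK and ATF4 gave another picture on the same arrays. All 8 of a list of such genes (ATF4, DDIT3, TRIB3, ATF3, CHAC1, ASNS, SESN2 and PPP1R15A) were called higher at 42 µM, beside 1.57% of all genes tested. Their log2 fold changes ran from 0.76 (ATF4) to 3.01 (CHAC1), with a median of 2.16. At 28 µM 0 of them were called with all arrays (beside 0% of all genes), with a median of 1.46. Without replicate 4 of that group 7 were called higher, beside 1.45% of all genes. That array was singled out by these same 8 genes, so the calls without it are a description and no support. The mean of the 8 over the DMSO mean was 2.35, 2.35, 1.71 and 1.60 on the 42 µM arrays, whereas that of the 12 chaperones and co-chaperones was -0.06, 0.15, -0.03 and 0.10 and that of the 9 ERAD genes was 0.33, 0.32, 0.21 and 0.22. On replicate 4 of the 28 µM group the PERK arm was at 0.19, the ERAD genes at 0.02 and the chaperones and co-chaperones at 0.23, the highest of the 12 arrays for these. The list of 8 was drawn up with earlier results of these arrays known, and the difference between the lists was not tested. PERK arm is only the name of this list. The arrays do not measure PERK activity or phosphorylation of eIF2α, and whether PERK raised these genes was not tested. Of 80 further ER genes for disulfide exchange, glycan handling, targeting, degradation, ER to Golgi transport and stress sensing, 1 was called higher at 42 µM, a share near the 1.57% of all genes tested, and 0 at 28 µM with or without replicate 4, with medians of 0.08 and 0.09 over all arrays. That gene is NFE2L1, an ER-bound transcription factor that raises proteasome genes, with 0.93 ± 0.16 at 42 µM (adjusted p = 0.0152 in limma).

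**Figure D4:**
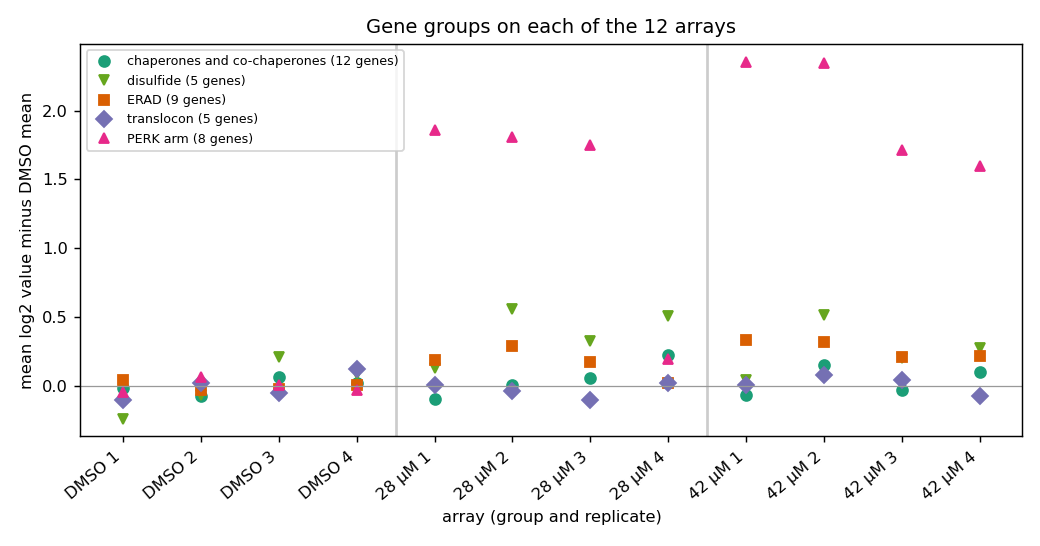
Mean log2 value minus the DMSO mean (y axis) of 4 groups of the ER genes and of the 8 genes listed as the PERK arm (pink triangles) on each of the 12 arrays (x axis). The PERK arm stands between 1.60 and 2.35 at 42 µM and at 0.19 on replicate 4 of the 28 µM group, and the 9 ERAD genes (orange squares) stand between 0.21 and 0.33 at 42 µM.

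The stretches of HSPA5 and SDF2L1 are shown since both hold an ERSE-type match and had all 42 µM arrays below all DMSO arrays: HSPA5 (chr9:125241344-125241593, minus strand, written along the gene) with an ERSE match that begins 66 bases before the start and SDF2L1 (chr22:21642052-21642301, plus strand) with an ERSE-II match on the minus strand 188 bases before it. Both were thus picked by their own values, and the other HSPA5 probe went the other way, with 0.66 at 42 µM.
HSPA5: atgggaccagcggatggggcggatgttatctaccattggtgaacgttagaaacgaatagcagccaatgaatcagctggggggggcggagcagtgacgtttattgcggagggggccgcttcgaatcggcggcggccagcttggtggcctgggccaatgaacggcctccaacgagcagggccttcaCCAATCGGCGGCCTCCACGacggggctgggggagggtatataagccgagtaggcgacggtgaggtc
SDF2L1: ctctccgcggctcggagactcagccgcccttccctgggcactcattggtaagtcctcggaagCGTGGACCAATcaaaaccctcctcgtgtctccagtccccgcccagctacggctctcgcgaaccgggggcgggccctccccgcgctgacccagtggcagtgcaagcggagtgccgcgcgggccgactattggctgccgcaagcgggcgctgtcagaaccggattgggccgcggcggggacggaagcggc
Of the 33 members with a window, 8 held an ERSE match (24.2%), among 25 of the 27305 genes in the table (0.0916%): HSPA5, HSP90B1, CALR, CANX, CRELD2, PDIA6, SERP1 and XBP1. ERSE-II was found in HYOU1, SDF2L1 and HERPUD1 (9.09%, beside 0.0696% of all genes), UPRE in HYOU1 and DNAJC10 (6.06%, beside 0.927%) and the composite site in HERPUD1 (3.03%, beside 4.46%). In HYOU1 the UPRE match overlaps 1 of its 2 ERSE-II matches. ERSE was defined from promoters of ER chaperone genes such as HSPA5, and the other motifs too are known from genes of the stress responses of the ER. The shares of ERSE, ERSE-II and UPRE among the members, HERPUD1 included, are thus a description of how such genes are known. Of the 11 members with ERSE or ERSE-II, 6 were higher at 42 µM with a median of 0.045 (-0.73 to 1.13), and of the 22 with a window and neither motif, 17 were higher with a median of 0.21 (-0.45 to 0.97). The difference between these medians was not tested. In the PERK arm list, 3 of 8 genes (ATF3, CHAC1 and ASNS) held a composite match (37.5%) and 0 held ERSE or ERSE-II, and a missing match says only that these letters are not in the window. The list holds ATF4 and genes downstream of it, and the composite site is the kind that ATF4 binds. This share too thus describes how these genes are known.

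**Figure D5:**
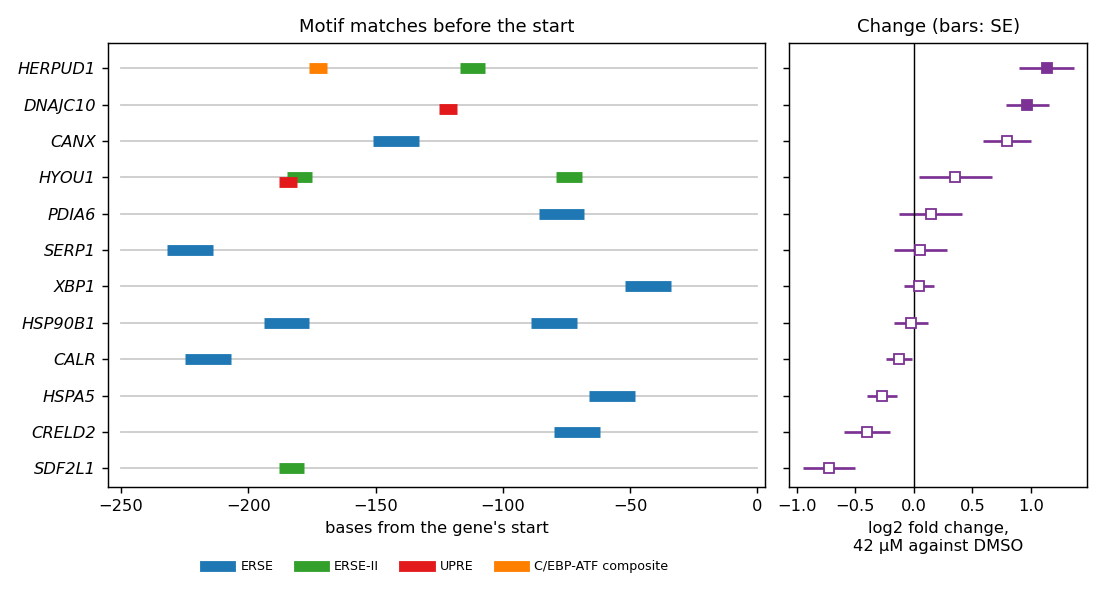
Left, positions of the motif matches (coloured bars) in the 250 bases before the start (x axis, bases) of the 12 members that hold one, for 1 start per gene; right, their log2 fold change at 42 µM with its standard error. The order is that of the change, from HERPUD1 (1.13) to SDF2L1 (-0.73), and ERSE matches (blue) lie on genes from 0.79 (CANX) to -0.40 (CRELD2).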

How the data were processed

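RNA of HuH-7 cells (3 groups of 4 arrays) was measured on Agilent 4x44K arrays. The authors deposited Feature Extraction output (version 10.7.3.1 per the file headers), with mean and background intensity per spot, and also normalized log2 values that the authors had Edwards-corrected and quantile normalized. From the deposited intensities, control and outlier-flagged spots were left out, Edwards correction and quantile normalization were applied with limma 3.58.1 in R 4.3.3 (data.table, version 1.17.8), and spots of a probe were averaged as log2 values. A probe was kept if 1 group or more had it well above background on 2 or more of its 4 arrays, and 7524 were dropped. Probe positions are on hg19. The linear model (lmFit, eBayes, two-sided) took in all 12 arrays of the 3 groups, and the procedure was tested on simulated data. The methods name a log2 limit of 1, tried as an alternative, and the results 0.6, used here. The members, gene lists and tests were chosen with earlier results of these data known. Full statistics are given for members called with all arrays, for HSPA5, HSP90B1, DNAJB9, HERPUD1, SYVN1, SEC61A1, XBP1, ERN1, ATF6 and KDELR2, and for the largest change at 42 µM in each role, and other lists by called genes and range. The precision is limited by the number of arrays, since depth does not apply. Alternatives changed the correction, signal, scaling, filter, blocks, model, fold limit and probe, and left out single arrays without normalizing again. Motifs were searched and plots drawn with Python 3.11.15, pandas 2.3.3, numpy 2.4.6 and matplotlib 3.10.9. Protein sequences and the other assays of the study were not used here.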

Additional observations from a re-analysis of the deposited data

Results flagged for a closer look

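In 8 of the 111 groups of 4 arrays (37 members in 3 groups) the highest or the lowest array stood apart, with a gap to its nearest neighbour, as a share of the whole range of the group, above Dixon's 95% critical value, and chance flags about 1 in 20 groups. Of the 8, 3 rest on replicate 1 of the 42 µM group, which was lowest for WFS1 (10.13 against 10.74 to 10.80, gap share 0.909), P4HB (14.01 against 14.75 to 14.84, gap share 0.896) and PDIA6 (10.58 against 11.31 to 11.41, gap share 0.873). Within the same group, HSPA5 was lowest on replicate 3 (10.94 against 11.11 to 11.13, gap share 0.885) and DERL2 was highest on replicate 2 (10.63 against 10.50 to 10.52, gap share 0.831). In the 28 µM group EDEM1 was lowest on replicate 4 (8.33 against 8.56 to 8.59, gap share 0.887), the array that also stood apart for the PERK arm genes. Among the DMSO arrays SEC61B was lowest on replicate 3 (14.86 against 15.11 to 15.13, gap share 0.931) and SIL1 was highest on replicate 1 (10.49 against 10.05 to 10.12, gap share 0.849). The causes of these gaps were not tested.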

How the results depend on the processing

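Under the alternatives the changes of HERPUD1 and DNAJC10 at 42 µM stayed above 0, while their calls did not always hold. The count of members called at 42 µM was 2, and it was 1 with the processed signal (DNAJC10, quantile normalized or scaled to the 75th percentile), 1 with a log2 limit of 1 (HERPUD1) and 0 with slide as a block, while 3 were called with slide as a random block, array weights or the mean of all probes (CANX added), with only the 2 groups fitted (ERN1 added) and with Edwards values scaled to the 75th percentile (KDELR2 added, lower). Leaving out single arrays gave 0 to 4 called members at 42 µM and 0 to 2 at 28 µM, and the calls of HERPUD1 and DNAJC10 at 42 µM held in 6 and 9 of these 12 fits. Without DMSO replicate 1, DMSO replicate 2 or 42 µM replicate 2 the count was 0, and without DMSO replicate 3 or 42 µM replicate 1 it was 1. With arrays scaled to the 75th percentile, from the processed signal and from the Edwards values in turn, the medians at 28 µM were 0.0375 and 0.0557 for all members, -0.25 and -0.27 for the translocon, and -0.065 and -0.10 for chaperones and co-chaperones, and 0.0906 for the disulfide enzymes from the processed signal. At 42 µM they were -0.0763 and -0.0534 for all members (16 and 17 of 37 higher), -0.11 and -0.0821 for the translocon, -0.11 and -0.11 for chaperones and co-chaperones, and 0.20 for ERAD from the processed signal, while the median of all genes moved by less than 0.1. In the same order, HSP90B1 turned to -0.13 and -0.16 at 28 µM, and XBP1 to -0.0861 and -0.0019 at 28 µM and to -0.25 and -0.18 at 42 µM. With the mean of all probes of a gene, HSPA5 turned to 0.33 at 28 µM and 0.19 at 42 µM and ERN1 to -0.0564 at 28 µM, and the ERAD median was 0.13 at 42 µM and 0.034 between 42 and 28 µM. Slide as a block gave a median of -0.0218 for chaperones and co-chaperones at 42 µM. Without single arrays that median ran from -0.0226 to 0.15 at 28 µM, that of the translocon from -0.10 to 0.11 and that of the disulfide enzymes from 0.0369 to 0.34 at 42 µM. The causes of these shifts were not tested.

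The replicate numbers were tried as pairs. The 12 correlations between the deviations of samples with the same number ran from -0.44 to 0.62, and 7 were over 0.1. The highest, for replicate 1 at 28 and 42 µM, came from arrays on the same slide, so number and slide are mixed there. Whether samples with the same number were paired cannot be told from these values. With the replicate block 2 members were called at 42 µM, 0 at 28 µM and 0 between the concentrations, with the median of all members at 0.16, 0.08 and 0.02. A block for the scan day was not run, because all 12 arrays have 1 scan day. In the 250 bases before the start alone, the same number of members held each motif, while over all genes ERSE-II was in 18 (0.0659%), UPRE in 213 (0.78%) and the composite site in 1061 (3.89%).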
